A study of Mus musculus with 10 samples.

Results

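Gdf15 and Adm2 code for small secreted peptides of stressed cells, and their RNA was followed over the 5 groups of a mouse array series on the kinase PERK. The members were the gene probes, not control spots, whose RefSeq accession belongs to either gene. This gave 1 probe for each gene, 2 of 55681 gene probes, while 19752 genes had a symbol in all. The probes were A_55_P1960735 for Gdf15 (NM_011819) and A_55_P2181386 for Adm2 (NM_182928). None of their 20 spots was saturated or had an outlier flag.

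Single-colour Agilent arrays (Cy3) were made from 10 samples in 5 groups of 2. The mice were male C57BL/6J, and their age was not given in the sources used here. Muscle came from hSA::Fv2E-PERK transgenic mice 12 h after an intraperitoneal injection of AP20187 at 1 ng/g, from transgenic mice 12 h after an injection of vehicle (ethanol, PEG-400 and Tween-20 in water), and from wild type mice that received no injection. Cultures were C2C12 cells, a mouse myoblast line, carrying Fv2E-PERK. They were kept in horse serum for 3 days to differentiate and harvested 12 h after 100 nM AP20187 or its ethanol vehicle. The hSA element is a skeletal actin promoter, so the transgene is driven in muscle fibres, and all 4 groups other than wild type carry Fv2E-PERK whether or not AP20187 was given. The labels do not say which muscle was taken, or whether the C2C12 cells were a single clone. They number the replicates without saying that these were separate animals or cultures, so p-values measure the spread between these samples only.

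Fv2E-PERK joins PERK to a domain that pairs when AP20187 binds it. Once active, PERK adds a phosphate to eIF2alpha, a factor of translation initiation, and so sets off the integrated stress response (ISR): most protein synthesis slows while the transcription factor ATF4 is made, and ATF4 and its partner CHOP raise genes for amino acid supply, redox balance and secreted factors. GDF15 is a distant member of the TGF-beta superfamily that signals to the brainstem through the receptor GFRAL with RET and lowers food intake. ADM2, also called intermedin, belongs to the calcitonin peptide family and acts through the receptor CALCRL paired with 1 of 3 accessory proteins, RAMP1, RAMP2 or RAMP3. In muscle and other tissues, Gdf15 is widely used as a marker of mitochondrial and ER stress.

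The promoters are shown because both genes rose in muscle, as described below, and because the ISR factors bind known short motifs. RefSeq (GRCm38.p6) places Gdf15 on the minus strand of chromosome 8 with 2 annotated starts and Adm2 on the plus strand of chromosome 15 with 1. Each window has 300 bases, 250 before the start and 50 after it, at chr8:70632407-70632706 for the first Gdf15 start, chr8:70632046-70632345 for the second and chr15:89322470-89322769 for Adm2. Capitals mark motif matches.
Gdf15 start 1: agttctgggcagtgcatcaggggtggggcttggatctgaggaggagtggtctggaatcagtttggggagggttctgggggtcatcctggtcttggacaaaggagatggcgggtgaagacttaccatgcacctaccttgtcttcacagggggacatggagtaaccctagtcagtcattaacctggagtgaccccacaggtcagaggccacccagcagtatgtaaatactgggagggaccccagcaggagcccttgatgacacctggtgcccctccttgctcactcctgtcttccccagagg
Gdf15 start 2: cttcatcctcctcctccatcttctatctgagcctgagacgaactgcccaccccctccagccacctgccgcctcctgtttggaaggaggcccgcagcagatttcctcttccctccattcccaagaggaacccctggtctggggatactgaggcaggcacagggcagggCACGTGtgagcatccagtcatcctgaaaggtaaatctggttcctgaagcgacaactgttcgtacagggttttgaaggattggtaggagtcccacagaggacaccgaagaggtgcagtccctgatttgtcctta
Adm2: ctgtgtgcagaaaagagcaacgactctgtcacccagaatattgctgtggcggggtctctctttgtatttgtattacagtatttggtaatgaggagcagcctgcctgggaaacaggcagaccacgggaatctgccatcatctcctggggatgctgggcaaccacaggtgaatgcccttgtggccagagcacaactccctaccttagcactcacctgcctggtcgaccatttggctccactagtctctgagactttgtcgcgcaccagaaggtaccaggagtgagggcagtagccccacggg
On both strands 6 motifs were searched: the C/EBP-ATF composite core TGATGNAA that ATF4 and CHOP dimers bind, the cAMP response element TGACGTCA, its core TGACG, which the full element and the UPR element also hold, the UPR element core TGACGTGG, the AP-1 site TGANTCA, and the E-box CACGTG. The only match was an E-box in the window of the second Gdf15 start, beginning 83 bases before that start. Of 32851 RefSeq promoter windows, 7.15% held the E-box, 3.97% the composite core, 1.79% the cAMP response element, 20.8% its core, 0.676% the UPR element core and 7.81% the AP-1 site. A missing match says only that these letters are not in these windows.

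On the 10 arrays, 41.0% to 53.1% of gene spots were well above background by the scanner software's own test. The wild type arrays were scanned in 1 session, the 4 transgenic arrays in another and the C2C12 arrays in the third. Genotype, injection and session therefore cannot be told apart where transgenic and wild type muscle are compared, nor can system and session where C2C12 and muscle are. On the C2C12 slide the AP20187 arrays lay in row 2 and the vehicle arrays in row 1, and the effects of slide row and agent cannot be told apart. Of the transgenic muscle arrays, those of vehicle lay in slide column 1 and those of AP20187 in columns 3 and 4. The effects of slide column and agent cannot be told apart there either. All 14 muscle fibre markers were well above background in every muscle group. In C2C12 cells, 9 of the 10 markers with an unflagged spot on both AP20187 arrays were well above background on both, and all 13 of those on both vehicle arrays. Myh2 was dim on both AP20187 arrays.

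Levels are given as log2 processed intensities with the 75th percentile of the same array subtracted, so 0 is the level of a bright gene spot. For Gdf15 the level was 5.12 and 5.03 in AP20187-treated transgenic muscle, 3.72 and 3.63 in vehicle-treated transgenic muscle, and -4.36 and -4.39 in wild type muscle, where neither spot was well above background. In C2C12 cells it was 1.57 and 1.73 after AP20187 and 1.13 and 0.82 after vehicle. In raw processed intensity the transgenic spots were 6751 and 6624 units after AP20187 and 2322 and 2056 units after vehicle, against 7.67 and 8.59 units in wild type muscle. All 4 transgenic muscle arrays were high, the C2C12 arrays lay between, and the wild type arrays were low.

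Adm2 had a level of 1.41 and 1.28 in AP20187-treated transgenic muscle, 0.49 and 0.39 in vehicle-treated transgenic muscle, and -6.06 and -6.24 in wild type muscle, again not well above background. In C2C12 cells it was -1.43 and -1.30 after AP20187 and -2.13 and -2.77 after vehicle, and the second vehicle array was not well above background. Its raw processed intensity was 516.5 and 492.4 units in transgenic muscle after AP20187 and 247.8 and 217.0 units after vehicle, against 2.38 and 2.39 units in wild type muscle. The groups stood in the same order as for Gdf15.

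For both genes that order was transgenic AP20187, transgenic vehicle, C2C12 AP20187, C2C12 vehicle and wild type. Between neighbours the smallest gap from array to nearest array was 0.44 log2 units for Gdf15 and 0.69 for Adm2, in each case between the AP20187 and vehicle arrays of C2C12. The share of all genes whose groups of 2 arrays stand apart in this way was not counted. Group means for Gdf15 were 5.08 ± 0.06, 3.68 ± 0.06, 1.65 ± 0.12, 0.97 ± 0.22 and -4.38 ± 0.02 (SD, n = 2 each) in that order of groups. For Adm2 they were 1.35 ± 0.09, 0.44 ± 0.07, -1.37 ± 0.10, -2.45 ± 0.45 and -6.15 ± 0.13 (SD, n = 2 each). Transgenic AP20187 and transgenic vehicle differed past the test's threshold for both genes, and C2C12 AP20187 and C2C12 vehicle for neither. The other neighbouring pairs were not tested.

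**Figure D1:**
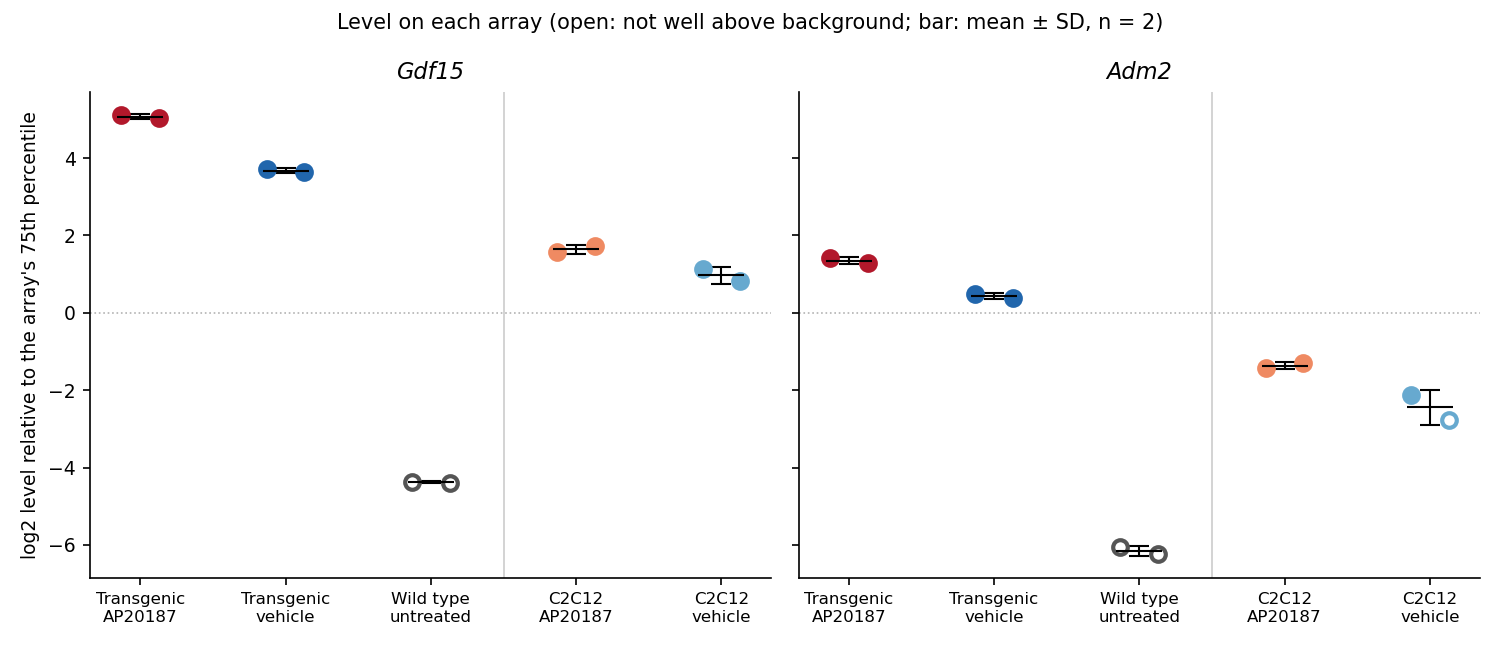
Level of Gdf15 (left) and Adm2 (right) on each of the 10 arrays, in log2 units relative to the array's 75th percentile, with the mean and SD of each group of 2. Open points were not well above background. Gdf15 lies between 3.63 and 5.12 on the 4 transgenic muscle arrays and at -4.36 and -4.39 in wild type muscle, and Adm2 shows the same order of groups.

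AP20187 against vehicle in transgenic muscle asks what the added dimeriser did to mice that already carried the transgene. Both peptide genes were higher after AP20187. Gdf15 rose by 1.40 log2 units (SE 0.10, 95% confidence interval 1.17 to 1.63), 2.64-fold, with an adjusted p of 0.000353 by limma with Benjamini-Hochberg adjustment. Adm2 rose by 0.91 (SE 0.16, interval 0.53 to 1.28), 1.87-fold, with an adjusted p of 0.00705 by limma. In this comparison 29.3% of 13543 genes tested were called, 14.3% higher and 15% lower, so a call by itself was common. By size, Gdf15 was the 174th largest change from the top and Adm2 the 654th, which left 1.28% and 4.82% of genes above them, and the median over all genes was -0.11.

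The Adm2 call in muscle depended on 2 of the arrays. Without the second vehicle array it was 0.86 with an adjusted p of 0.0513, and without the first AP20187 array 0.84 with an adjusted p of 0.0569, both by limma. Without the first vehicle array it passed at 0.96 (limma adjusted p = 0.0313), and without the second AP20187 array at 0.97 (limma adjusted p = 0.0339). Gdf15 kept its call without any 1 of the 6 muscle arrays, at 1.35 to 1.44. Macrophage markers, from cells that can also express Gdf15, moved the other way: 0 of 13 tested were higher and 11 lower, beside 14.3% and 15% of all genes, with a median of -0.93. Their summed linear level was 18.3 to 20.1 in AP20187-treated and 32.1 to 35.3 in vehicle-treated transgenic muscle, with Cd163 dim on both arrays of each group and Ptprc dim on both after AP20187. Their part in the result was not tested, and in bulk muscle fewer cells of a type and less RNA per cell cannot be told apart.

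Vehicle-treated transgenic muscle against wild type muscle gave far larger differences for both genes than AP20187 did within the transgenic mice. Since neither gene was well above background in wild type muscle, the difference is given as a bound, the bright group's mean against the dimmest signal that was well above background on the wild type arrays. By that bound Gdf15 was at least 249-fold higher (limma adjusted p = 1.75e-08) and Adm2 at least 26.4-fold higher (limma adjusted p = 6.08e-07) in vehicle-treated transgenic muscle. In this comparison 38.3% of genes were called, 25.7% higher and 12.6% lower. After AP20187 the transgenic muscle stood at least 655-fold above wild type for Gdf15 (limma adjusted p = 5.04e-09) and at least 49.4-fold for Adm2 (limma adjusted p = 2.12e-07), where 52.2% of genes were called, 29.6% higher and 22.6% lower. The bounds after AP20187 carry the same limits: the Gdf15 interval began at 597, and normexp gave differences of 6.33 and 3.03. Both comparisons with wild type share the wild type arrays with each other and the transgenic arrays with the AP20187 comparison.

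The detection pattern of both genes was an uncommon one. Dim on both wild type arrays and well above background on all 4 transgenic arrays were 53 of 13543 genes, 0.391%, and both peptide genes were among them. The reverse pattern held for 283 genes, 2.09%. Of the pathway lists described below, 3 further genes had the pattern of the peptide genes: Fgf21, a hormone of nutrient stress, Slc7a11, the cystine carrier, and Pck2, a mitochondrial enzyme of glucose synthesis. By the same bound, Fgf21 was at least 1160-fold higher in vehicle-treated transgenic muscle than in wild type. Macrophage markers had a summed level of 32.1 to 35.3 in vehicle-treated transgenic and 36.4 to 38.0 in wild type muscle. Of 13 tested, 1 was called higher and 2 lower, beside 25.7% and 12.6% of all genes. Myoblast and early myotube markers moved more: of 7 tested, 5 were called higher and 2 lower. Their median was 0.88 beside 0.09 over all genes. Their summed levels overlapped, at 54.5 to 70 in vehicle-treated transgenic and 59.7 to 66.7 in wild type muscle. The part of these markers in the peptide results was not tested.

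AP20187 against vehicle in C2C12 examined the same fusion protein in cultured muscle cells. Both genes had higher means after AP20187, and neither difference passed the threshold. The Gdf15 difference was 0.67 log2 units (SE 0.15, 95% confidence interval 0.35 to 1.00), 1.60-fold, with a limma adjusted p of 0.0777. The Adm2 difference was 1.08 (SE 0.36, interval 0.29 to 1.87), 2.12-fold, with a limma adjusted p of 0.226. In this fit 0.482% of 11409 genes, 55 in number, were called, 0.316% higher and 0.167% lower. Unadjusted, the p-values by limma were 0.000705 for Gdf15 and 0.0116 for Adm2.

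The C2C12 calls depended on how the arrays were scaled. Outlier-flagged spots were 2.37% and 2% on the AP20187 arrays and 0.376% and 0.278% on the vehicle arrays. Such spots were left out of the levels but kept in the 75th percentile. With that percentile over unflagged spots, the Gdf15 difference was 0.88, past the threshold, and the median of all genes was 0.15. The part of the flagged spots in the result was not tested. Gdf15 had a processed intensity of 473.5 and 495.3 units after AP20187 and 495 and 277.1 units after vehicle, so that the unscaled ranges came together at the top. Quantile normalization put the Gdf15 difference at 1.12 (limma adjusted p = 0.000254) and the Adm2 difference at 1.31 (limma adjusted p = 0.0369), and it moved the median of all genes to 0.38 where the main scaling had -0.06. Relative to the median of all genes tested, the Gdf15 difference was 0.73 in the main scaling and 0.74 with quantile normalization, and that of Adm2 was 1.14 and 0.93. Leaving out an array also changed the Gdf15 call: it passed without the first vehicle array, at 0.83 (limma adjusted p = 0.0473), and without the first AP20187 array, at 0.76 (limma adjusted p = 0.0188). Adipocyte markers moved in the same comparison, with 4 of 6 tested called higher and 0 lower, beside 0.316% and 0.167% of all genes, and a median of 3.34. Their summed level was 7.96 to 11.3 after AP20187 and 0.819 to 1.07 after vehicle, with Lep dim on both arrays of each group. The 10 muscle fibre markers with a value on all 4 arrays summed to 384 to 423 after AP20187 and 463 to 516 after vehicle. Of 13 tested, 1 was called lower and 0 higher, beside 0.167% and 0.316% of all genes, with a median of -0.24. The part of these values in the peptide results was not tested.

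Whether AP20187 changed the genes more in muscle than in C2C12 was tested as the difference of the 2 changes over all 10 arrays. For Gdf15 the muscle change was larger by 0.72 log2 units (SE 0.18, 95% confidence interval 0.32 to 1.13; limma adjusted p = 0.0297), in a fit that called 12% of 14094 genes, 7.98% higher and 4.02% lower. This call was lost with quantile normalization, where the difference was 0.29 with a limma adjusted p of 0.269. It was also lost without any 1 of the 4 transgenic arrays, without the first C2C12 vehicle array and without the first C2C12 AP20187 array, at 0.57 to 0.77, and kept without any 1 of the other 4 arrays. For Adm2 the difference was -0.17 (SE 0.34, interval -0.94 to 0.58; limma adjusted p = 0.77), an interval that leaves room for either direction. The dose and route differ between mice and cells, as do slide and session.

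C2C12 vehicle cells had less of both RNAs than vehicle-treated transgenic muscle. The Gdf15 level fell by 2.70 log2 units (SE 0.13), 6.52-fold lower in the cells, with a limma adjusted p of 7.9e-09. The Adm2 level fell by 2.89 (SE 0.24), 7.39-fold lower, with a limma adjusted p of 7.79e-07. In that comparison 78.7% of 14292 genes were called, 38.5% higher and 40.2% lower, so a difference between the systems was the rule. Of 14 macrophage markers, 7 were dim on both C2C12 vehicle arrays and 3 were well above background on both. Gdf15 was well above background on both, and the part of such cells was not tested.

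**Figure D2:**
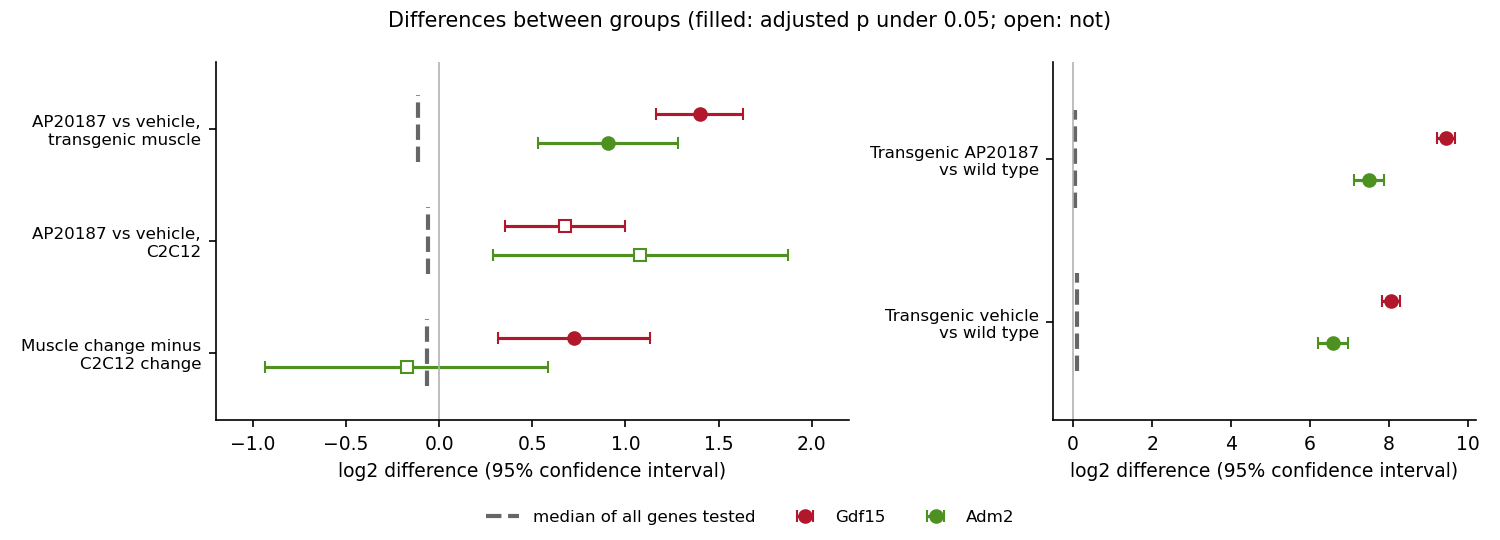
Differences of Gdf15 (red) and Adm2 (green) between groups, in log2 units with 95% confidence intervals. Left, AP20187 against vehicle for each system and the difference of these changes; right, transgenic against wild type muscle, where the wild type spots were not well above background and the text gives bounds. Filled points had an adjusted p under 0.05, and dashed lines mark the median of all genes tested.

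Many genes on a list of ISR regulators were higher in muscle after AP20187. Of 13 ISR regulators, 8 were called higher and 0 lower after AP20187 in transgenic muscle, where 14.3% of all genes were called higher and 15% lower. Their median was 0.75 beside -0.11 over all genes. The largest rise was that of Ppp1r15a, the phosphatase subunit that reverses eIF2alpha phosphorylation, at 4.01 (SE 0.12). Atf3, a stress-induced repressor and activator, rose by 3.46 (SE 0.14), Ddit3, which codes for CHOP, by 3.09 (SE 0.13), and Nupr1, a chromatin-associated stress protein, by 3.02 (SE 0.23). The Atf4 RNA rose by 0.39 (SE 0.09, limma adjusted p = 0.0191), less than either peptide gene. Eif2ak3, the gene for PERK itself, differed by 0.09 (SE 0.16, limma adjusted p = 0.711), and whether its probe reads the transgene was not tested.

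Relative to wild type, vehicle-treated transgenic muscle had 6 of these 13 regulators higher and 1 lower, beside 25.7% and 12.6% of all genes. Atf4 was higher by 1.53 (SE 0.09), Ddit3 by 1.93 (SE 0.13) and Atf3 by 2.03 (SE 0.14), while Ppp1r15a differed by 0.11 (limma adjusted p = 0.505). In C2C12 cells 1 of 13 was called higher after AP20187, Atf3 at 1.44 (SE 0.15), and 0 were called lower, beside 0.316% and 0.167% of all genes. Ddit3 differed there by 0.54 (limma adjusted p = 0.124), Ppp1r15a by 0.58 (limma adjusted p = 0.137), Atf4 by 0.30 (limma adjusted p = 0.286) and Eif2ak3 by -0.25 (limma adjusted p = 0.523).

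Gdf15 and Adm2 moved beside a list of 27 other known targets of ATF4 and CHOP, of which 18 were called higher and 0 lower after AP20187 in muscle, beside 14.3% and 15% of all genes, with a median of 0.77. Ddit4, an inhibitor of mTORC1, rose by 2.70 (SE 0.21), Bbc3, the cell death gene for PUMA, by 2.50 (SE 0.17), Chac1, a glutathione-degrading enzyme, by 1.89 (SE 0.15), and Stc2, a secreted glycoprotein, by 1.86 (SE 0.25). Fgf21, another secreted stress factor, differed by 0.80 with an SE of 0.58 (limma adjusted p = 0.321). Its levels were 6.6 and 6.89 after AP20187 and 5.89 and 6.01 after vehicle. The SE also takes in the spread of its wild type spots, at -4.18 and -6.42, neither of them well above background. Relative to wild type, 20 of the 27 were called higher and 2 lower in vehicle-treated transgenic muscle, beside 25.7% and 12.6% of all genes, with a median of 2.50. In C2C12 cells 4 of 24 tested targets were called higher after AP20187 and 0 lower, beside 0.316% and 0.167% of all genes. These 4 were Fgf21 at 1.99 (SE 0.19), Cth, an enzyme of cysteine synthesis, at 1.36 (SE 0.17), the pseudokinase gene Trib3 at 1.04 (SE 0.15) and Psph, an enzyme of serine synthesis, at 0.73 (SE 0.13). The second C2C12 AP20187 spot of Trib3 had an outlier flag, so its value there rests on 1 array after AP20187. Without the second vehicle array 1 of the targets was called in C2C12, and 0 ISR regulators.

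Gdf15 is also a target of the tumour suppressor p53. A list of p53 targets, which also held Trp53, the gene for p53 itself, had 17 genes tested in muscle. Of these, 12 were called higher and 2 lower after AP20187, beside 14.3% and 15% of all genes, with a median of 1.14. Trp53 was among the 12, at 1.29 (SE 0.21). Btg2, an inhibitor of proliferation, rose by 2.29 (SE 0.21), and Sesn2, a stress sensor that restrains mTORC1, by 1.57 (SE 0.14). Eda2r, a receptor of the TNF family, was not well above background on either vehicle array. By the bound it was at least 2.44-fold higher after AP20187, and the difference without the bound was 2.14 (limma adjusted p = 0.00946). Sesn2, Bbc3 and Tnfrsf10b stand on this list and on that of the ATF4 and CHOP targets. In vehicle-treated transgenic muscle against wild type, 6 of 17 were called higher and 2 lower, with a median of 0.24, which is near the 25.7% and 12.6% of all genes and no result about this list. In C2C12 cells Gadd45a, a growth arrest gene, was called higher at 1.16 (SE 0.12), 1 of 16 tested, and 0 were called lower, beside 0.316% and 0.167% of all genes.

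Genes of the ER that answer mainly to the other branches of the unfolded protein response had 7 of 17 called higher and 0 lower in muscle after AP20187, beside 14.3% and 15% of all genes, with a median of 0.28. The largest rises were those of the sensors and factors of these branches, Ern1 at 1.50 (SE 0.21), Atf6 at 1.31 (SE 0.12) and Xbp1 at 0.92 (SE 0.11), with the co-chaperone Dnajb9 at 1.24 (SE 0.14). In vehicle-treated transgenic muscle 10 of 17 were higher than in wild type and 0 lower, beside 25.7% and 12.6% of all genes, with a median of 0.46. In C2C12 cells 0 of 16 tested passed by limma after AP20187, where 0.482% of all genes were called, with a median of 0.01. The 4 lists were chosen with results of these data known, so their counts describe the setting of the peptide genes and do not stand as independent support.

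**Figure D3:**
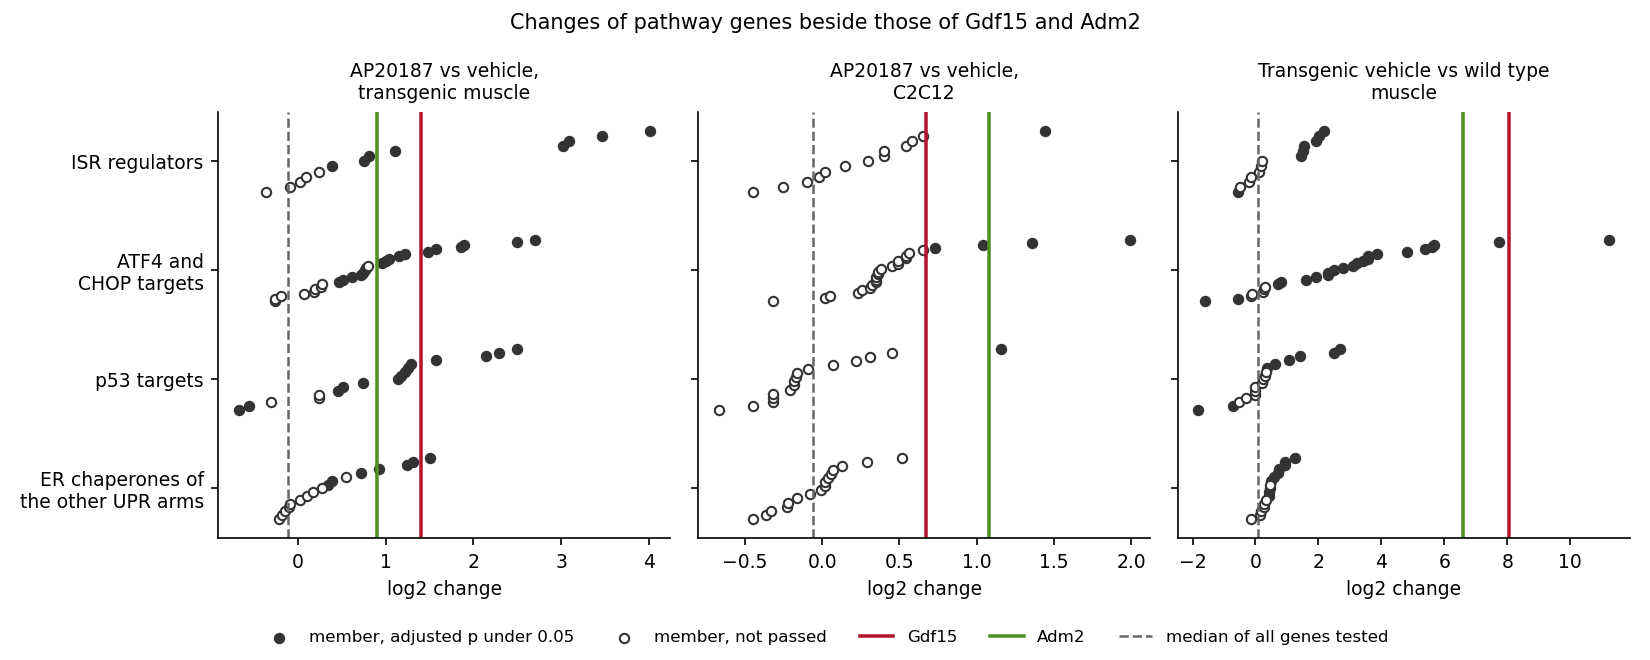
Log2 changes of the members of 4 gene lists (points, filled where the adjusted p was under 0.05) in 3 comparisons, with those of Gdf15 (red line) and Adm2 (green line) and the median of all genes tested (dashed). In transgenic muscle after AP20187 the Gdf15 line at 1.40 lies among the rising targets, and against wild type the lines at 8.06 and 6.59 rest on wild type spots that were not well above background.

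Receptor genes of both peptides were measured on the same arrays. Gfral, the GDF15 receptor, was not well above background on any of the 10 arrays. Ret, its co-receptor, fell by 0.80 (SE 0.20, limma adjusted p = 0.0243) in transgenic muscle after AP20187, with levels of -1.68 and -1.44 after AP20187 and -1.0 and -0.52 after vehicle, against -1.48 and -1.24 in wild type muscle. The wild type levels of Ret overlapped those after AP20187 and lay below those after vehicle, and in C2C12 cells Ret was dim on all 4 arrays. The list of GDF15 receptor and processing genes held 5 genes, of which 4 were tested in muscle and 1 was called lower and 0 higher. In that comparison 15% of all genes were called lower and 14.3% higher, so this is no result about the list. Furin, a protease that cleaves the precursors of many TGF-beta family proteins, differed by 0.05 (limma adjusted p = 0.823) in muscle and by -0.51 (limma adjusted p = 0.109) in C2C12.

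Calcrl, the receptor through which ADM2 acts, was not well above background on any of the 10 arrays. Its partner Ramp1 fell by 0.48 (SE 0.10, limma adjusted p = 0.0103) in muscle after AP20187, with levels of 4.06 and 4.06 after AP20187 and 4.46 and 4.63 after vehicle, against 4.05 and 4.13 in wild type muscle. The vehicle arrays of Ramp1 were the high ones, and the AP20187 and wild type arrays came together. Ramp2 differed by -0.14 (limma adjusted p = 0.411) after AP20187, and Ramp3 by 0.24 (limma adjusted p = 0.27). Against wild type, vehicle-treated transgenic muscle had more Ramp3, by 1.14 (SE 0.15, limma adjusted p = 0.00129), and more Ramp1, by 0.45 (SE 0.10, limma adjusted p = 0.00874), while Ramp2 differed by -0.23 (limma adjusted p = 0.18). In C2C12 cells Ramp1 differed by -0.34 (limma adjusted p = 0.545) and Ramp2 by -0.19 (limma adjusted p = 0.668), and Ramp3 was too dim to be tested.

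Among the peptide relatives of ADM2 only Adm was bright enough to be tested, and it showed no called change after AP20187. The calcitonin family list also holds the amidating enzyme gene Pam and the receptor gene Calcr. In muscle 3 of its 6 genes were tested, Adm, Pam and Calcr, and 0 passed by limma after AP20187. There 14.3% of all genes were called higher and 15% lower, and Calcr was dim in both transgenic groups. In C2C12 0 of 2 tested passed by limma, Adm and Pam, where 0.482% of all genes were called. Adm, the gene for adrenomedullin, differed by -0.34 (limma adjusted p = 0.153) in muscle and by -0.35 (limma adjusted p = 0.363) in C2C12. Calca, Calcb and Iapp, which code for CGRP and calcitonin, the second CGRP and amylin, were not well above background on any array. Pam, the enzyme that amidates such peptides, differed by -0.16 (limma adjusted p = 0.6) in muscle.

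Of 32 other ligands of the TGF-beta superfamily, 25 were tested in muscle, and 3 were called higher and 2 lower after AP20187, shares near the 14.3% and 15% of all genes, with a median of -0.12 beside -0.11. Among them, Gdf9, best known as an oocyte growth factor, rose by 1.37 (SE 0.14), and the inhibin subunit genes Inhbe and Inha rose by 0.78 (SE 0.16) and 0.66 (SE 0.20). Gdf10 fell by 0.88 (SE 0.23). In vehicle-treated transgenic muscle 1 of the 25 was higher than in wild type and 8 were lower, beside 25.7% and 12.6% of all genes, with a median of -0.46 beside 0.09 over all genes. In C2C12 cells 1 of 15 was called higher, Gdf7 at 1.84 (SE 0.31), and 1 lower, Gdf1 at -0.81 (SE 0.13), beside 0.316% and 0.167% of all genes.

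The genes whose pattern over the 10 arrays was most like each member were found by Pearson correlation of levels centred within muscle and within C2C12, over 13387 genes. The arrays share their groups, and the span between transgenic and wild type muscle carries most of the variance, with the wild type spots of both members below the background limit, so these values are a description. Nearest to Gdf15 were Slc7a5 (r = 0.999), a carrier of large neutral amino acids, Aldh18a1 (r = 0.998), an enzyme of proline synthesis, Adm2 (r = 0.997), Aldh1l2 (r = 0.996), a mitochondrial folate enzyme, and Coa4 (r = 0.995), an assembly factor of cytochrome c oxidase. Nearest to Adm2 were Slc7a5 (r = 0.998), Gdf15 (r = 0.997), Aldh1l2 (r = 0.996), the fucosyltransferase gene Fut1 (r = 0.995) and Slc7a3 (r = 0.994), a carrier of cationic amino acids. Each peptide gene was thus among the 3 genes nearest to the other, of 13387. Without centring, each was the nearest gene to the other, at r = 0.995.

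Slc7a5, near both, had levels of 2.24 and 2.14 in transgenic muscle after AP20187 and 1.46 and 1.44 after vehicle, against -2.36 and -2.48 in wild type muscle. It was well above background on all 10 arrays, wild type included, and its groups in muscle stood in the order of the peptide genes. It rose by 0.74 after AP20187 in muscle (limma adjusted p = 0.00378) and differed by 0.49 in C2C12 (limma adjusted p = 0.136). Aldh18a1 rose by 0.78 in muscle (limma adjusted p = 0.00475) and differed by 0.36 in C2C12 (limma adjusted p = 0.251). Coa4 differed by 0.25 in muscle after AP20187 (limma adjusted p = 0.0895), by 0.02 in C2C12, and was higher by 1.69 in vehicle-treated transgenic than in wild type muscle. Fut1 was dim on both wild type arrays, like the peptide genes, rose by 0.97 in muscle (limma adjusted p = 0.00438) and rose by 1.98 in C2C12 (limma adjusted p = 0.0417). Slc7a3 was also dim on both wild type arrays and dim on all 4 C2C12 arrays.

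**Figure D4:**
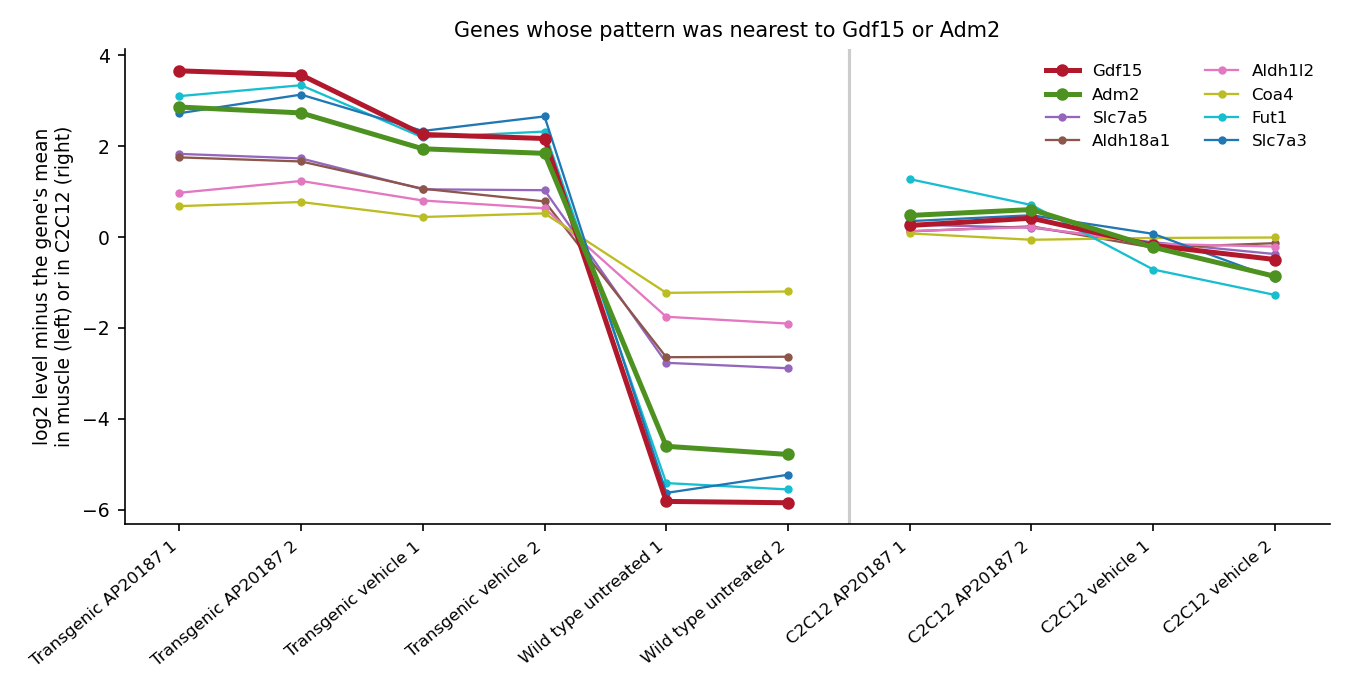
Levels of Gdf15, Adm2 and the 6 other genes nearest to them on the 10 arrays, in log2 units minus the gene's mean within muscle or within C2C12. In muscle all of them stand lower in wild type than in transgenic samples, and in C2C12 the spread between arrays is smaller.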

How the data were processed

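RNA of the 10 samples was read on 1 array each. The authors deposited the scanner files, whose linear spot intensity comes, per the file headers, from Agilent Feature Extraction 10.7.1.1 after background subtraction, and a table of log2 values of the same arrays, used as an alternative; its centring stays unknown. Control spots and outlier-flagged spots were left out, spots of a probe averaged, and log2 intensity set against the 75th percentile over all gene spots of the array. That choice of spots was settled after values were seen. Accessions were named through a RefSeq table of GRCm38.p6, used for names and promoters only; 26056 of 55681 probes received a symbol, and the brightest probe stood for a gene. A gene entered the test where both arrays of some group had it well above background, and was tested with limma 3.58.1 in R 4.3.3 (lmFit, eBayes with trend; 6 muscle, 4 C2C12 or all 10 arrays, with 3, 2 and 5 residual degrees of freedom), with Benjamini-Hochberg adjustment over all genes and a threshold of 0.05. With 2 arrays a group, the number of arrays limits the precision. The scripts were tested on simulated data.

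The members and gene lists were chosen with earlier results of these data known. Named are both members, up to 4 called genes per list with the largest change in muscle and up to 3 in C2C12, 6 regulators and hormones and 6 receptor genes whatever their test, and the 5 genes most like each member. In addition, Slc7a11 and Pck2 were named after their values were seen. Marker lists of muscle fibres, myoblasts, macrophages, endothelium, fibroblasts and adipocytes were counted. Background correction (normexp, offset 50, on median spot signals), scaling, filter, probe rule, the variance trend, the replicate number as a block and each array left out were the alternatives.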

Additional observations from a re-analysis of the deposited data

Results flagged for a closer look

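The AP20187 change of Gdf15 was larger in transgenic muscle than in C2C12 by 0.724 log2 units, a difference between groups that passed its own test over all 10 arrays (limma adjusted p = 0.0297). The mean of Gdf15 was higher after AP20187 in either system, by 1.40 in muscle and by 0.67 in C2C12. The test did not pass when the scaling was changed to quantile normalization (0.29) or to the 75th percentile over probes detected on all arrays (0.32). Relative to the median of all genes, the difference was 0.79 in the main scaling, 0.60 with quantile normalization and 0.79 with that percentile. The dose, the route and the scan session differ between the systems, and their part in the difference was not tested.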

How the results depend on the processing

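The direction of both genes in muscle, transgenic against wild type included, was the same under every alternative run. The C2C12 results depended on the scaling. With quantile normalization, the 75th percentile over probes detected on all arrays and that over unflagged spots (chosen after seeing the data), Gdf15 in C2C12 was 1.12, 1.15 and 0.88, past the threshold, and its difference between muscle and C2C12 was 0.29, 0.32 and 0.52, not past it. The first 2 also put Adm2 in C2C12 past it, at 1.31 and 1.55. Gdf15 in C2C12 also passed with no filter on dim probes (adjusted p = 0.0417) and with all 10 arrays in one fit (adjusted p = 0.0401), at 0.67 in both. Its difference between the systems did not pass with the deposited table (0.79) or without the variance trend (0.72, adjusted p = 0.0582). The Adm2 difference between the systems reversed with normexp, at 0.30, where it did not pass the threshold, and without the second C2C12 vehicle array, at 0.15. With normexp the difference of vehicle-treated transgenic from wild type muscle was 4.92 for Gdf15 and 2.24 for Adm2, past the threshold.

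Leaving out each array gave 0.84 to 0.97 for Adm2 in muscle, 0.52 to 0.83 for Gdf15 and 0.76 to 1.40 for Adm2 in C2C12, and 0.57 to 0.88 for Gdf15 and -0.50 to 0.15 for Adm2 in the difference between the systems. Genes called were then 1869 to 3273 for AP20187 in muscle, 13 to 239 in C2C12, 3149 to 5199 for transgenic vehicle against wild type and 935 to 1676 for the difference between the systems.

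Genes called in C2C12, 55 as reported, numbered 360 with normexp, 4656 with quantile normalization, 5823 with the percentile of detected probes, 219 with that of unflagged spots, 21 with the deposited table, 137 with no filter, 117 with the mean over probes, 31 without the trend and 139 with all 10 arrays. For the difference between the systems, 1691 as reported, they numbered 3179, 3859 and 4404 with normexp, quantile and the percentile of detected probes.

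The split of higher and lower calls moved too. In C2C12 it was 36 and 19 as reported, 162 and 198 with normexp, 4584 and 72 with quantile, 5805 and 18 with detected probes, 204 and 15 with unflagged spots and 18 and 3 with the deposited table. In muscle after AP20187 it was 1937 and 2027 as reported, 2074 and 1201 with quantile, 2228 and 1417 with detected probes and 1773 and 1064 with the deposited table. For transgenic vehicle against wild type it was 3478 and 1706, 2602 and 2323 with quantile and 2006 and 3109 with detected probes, and for transgenic AP20187 against wild type 4004 and 3067, and 3117 and 3998 with detected probes. For the difference between the systems it was 1125 and 566, 1622 and 1557 with normexp, 585 and 3274 with quantile, 479 and 3925 with detected probes and 724 and 1640 with unflagged spots. ISR regulators called higher in C2C12 numbered 1 as reported, 9 with quantile and 10 with detected probes, and ATF4 and CHOP targets 4, 21 and 23. The cause was not tested.

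With the replicate number as a block, 106 genes were called in C2C12, where Gdf15 had an adjusted p of 0.0618, and 5593 in muscle after AP20187; no call on either gene changed. Deviations of same-numbered samples correlated at 0.19 to 0.35 in muscle and 0.02 in C2C12 over 9463 genes, and the samples share only a number. Requiring every array to be well above background gave no value for either gene in muscle.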
